A study of Nannochloropsis oceanica with 6 samples.

Results

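Fatty acid elongases of the ELO type are membrane enzymes of the endoplasmic reticulum. They catalyse the condensation of an activated fatty acid with malonyl-CoA, the entry step of each round of chain lengthening, after which a reductase, a dehydratase and an enoyl reductase complete the round. GNS1 and SUR4 are names of yeast genes of this family. In Nannochloropsis, a genus of oil-rich marine algae of the stramenopile lineage, elongases work in alternation with desaturases to make long polyunsaturated fatty acids such as eicosapentaenoic acid, and they also extend saturated chains.

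The 6 elongase gene models described here were taken by protein identifier from the 10641 models of the deposited table, where each is annotated as a fatty acid elongase or as a GNS1/SUR4 family protein. All 6 carry the ELO family domain in the annotation, and 5 further models with that domain were set beside them, which makes 11 in all. Models 391778, 572755, 592542 and 601182 fall under the orthology group of long chain fatty acid elongases. Models 622402 and 672998 fall under the group that names elongation of polyunsaturated fatty acids. These assignments come from the annotation, which names no substrate of a single enzyme.

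The libraries came from Nannochloropsis oceanica strain CCMP1779, in 3 groups of 2. Every culture had been raised at 22 °C in days of 12 h light, at 30 µmol s-1 m-2, and 12 h dark, moved to darkness at zeitgeber time 12 and left there for 36 h. The blue group then saw blue light for 5 min, the red group red light for 5 min, each at 20 µmol s-1 m-2, and the dark group saw none. After 15 min more of darkness the cells of all groups were harvested, and polyadenylated RNA was sequenced from stranded libraries. Whether replicates 1 and 2 of a group were cultures of their own is left unsaid in the labels. The p-values therefore rest on the spread among these libraries, and that spread may be technical.

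Levels are in FPKM, fragments per kilobase of transcript scaled to the library, so levels of different models can be compared within a library. From the steps between low values, 1 FPKM was estimated to stand for between 16.6 fragments per kb, in dark replicate 1, and 28.1, in red replicate 1. Differences are on the scale log2(FPKM + 1), tested with limma over 9087 models, and "rose", "fell" and "called" mean an adjusted p under 0.05. The units scale the libraries differently: FPKM summed to between 588092 and 767747 per library and TPM to 1000000 in each. With FPKM 52.4% of all calls of blue against dark were higher and 53.3% of those of red against dark. TPM gave shares of 64.9% and 77.3%, median centring 38.1% and 39.2%. Over all tested models, the median log2 difference after blue was 0.05 with FPKM, 0.28 with TPM and −0.22 with median centring. After red it was 0.04, 0.37 and −0.12. All these values are relative to the other transcripts of the same cells, and a change in RNA per cell cannot be told apart from them.

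After the blue pulse, 2 of the 6 elongases rose, 1 fell and 3 did not pass, beside 76.1% of all tested models called, 39.9% higher and 36.2% lower. All 6 passed the filter on low values. The 3 that were called had moved by at least 2 log2 units. Calls of that size were made in 5.39% of all tested models, 3.8% higher and 1.6% lower, and the pulse reordered the family.

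Model 391778, a long chain fatty acid elongase (scaffold 7, 363229 to 365352, minus strand), stood at 20.5 and 20.9 FPKM in dark replicates 1 and 2, at 477 and 508 FPKM in blue, and at 63.5 and 77.8 FPKM in red. The groups did not overlap, and blue libraries were the highest. After blue it rose 23.8-fold, from 20.7 ± 0.25 to 493 ± 22.0 FPKM (SD, n = 2; log2 difference 4.51, SE 0.10, limma adjusted p = 3.26e-09), the 35th largest rise of all models tested. In the dark libraries 47.1% of tested models lay below it, and in the blue libraries 98.1%.

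Model 622402 (scaffold 2, 1107768 to 1108860, minus strand), of the GNS1/SUR4 family and the polyunsaturated group, was the least abundant elongase in darkness. It was at 1.51 and 1.58 FPKM in dark libraries, 90.7 and 80.9 FPKM with blue, and 39.6 and 54.7 FPKM with red. Both pulsed groups lay far above the dark libraries. The rise after blue was 55.6-fold, from 1.54 ± 0.05 to 85.8 ± 6.92 FPKM (SD, n = 2; log2 difference 5.09, SE 0.14, limma adjusted p = 8.39e-09). The dark values rest on few fragments, an estimated 22 and 25 if the whole span of 1093 bases is transcript, and fewer if it holds introns. This model lies inside another model of the same strand, described below.

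Model 572755 (scaffold 1, 983532 to 985675, minus strand), annotated as a fatty acid elongase, was the most abundant elongase in darkness and fell. It stood at 104 and 105 FPKM in dark libraries, 8.21 and 7.95 FPKM with blue, and 9.29 and 10.5 FPKM with red. The dark libraries were the highest by a wide margin, and the 2 pulses gave like values. After blue the level was 12.9-fold lower, at 8.08 ± 0.18 against 104 ± 0.91 FPKM (SD, n = 2; log2 difference −3.53, SE 0.09, limma adjusted p = 6.12e-09). Ranked from the largest rise down, it stood at 9073 of 9087 tested models.

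**Figure D1:**
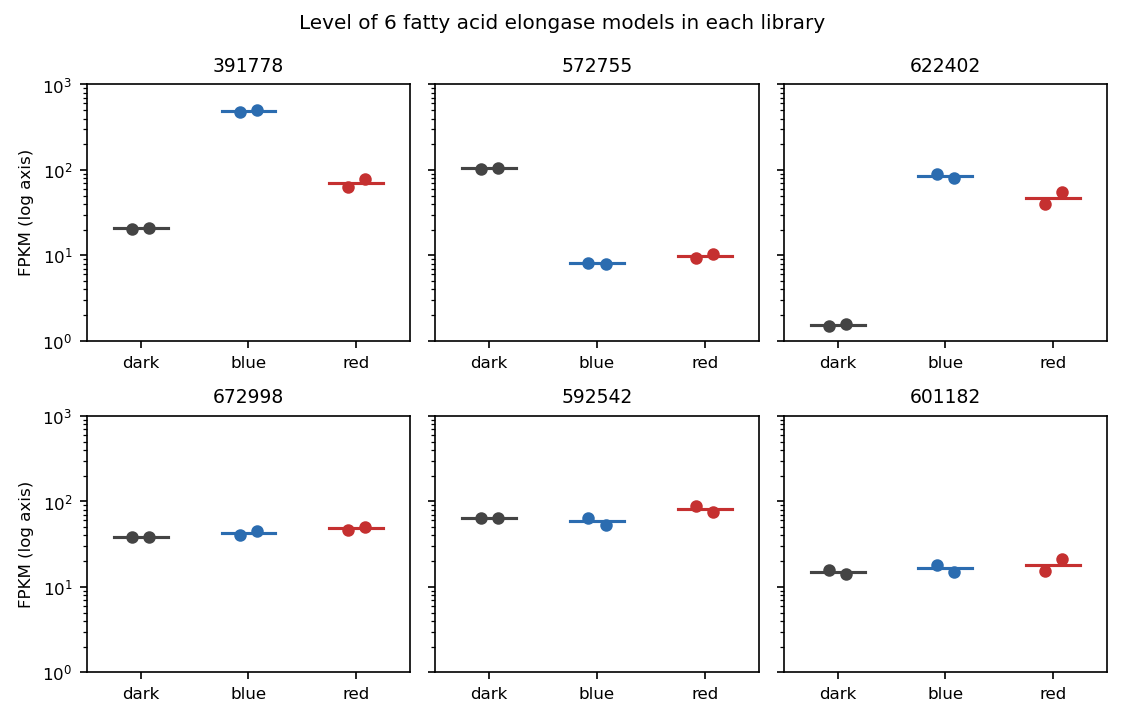
FPKM (log axis) of each of the 6 elongase models in the 2 dark, 2 blue and 2 red libraries; each point is a library and each bar the mean of a group. Models 391778 and 622402 are higher in both pulsed groups, 572755 is lower in both, and 672998, 592542 and 601182 stay within a narrow range.

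The other 3 elongases did not pass after blue light. Model 672998 (scaffold 21, 304438 to 308200, plus strand), the second member of the polyunsaturated group, was at 37.9 and 38.3 FPKM in dark libraries, 40.2 and 44.8 FPKM with blue, and 46.4 and 50.5 FPKM with red. Its blue libraries lay just above the dark ones without the difference passing (log2 difference 0.15, interval −0.05 to 0.35, limma adjusted p = 0.154). Model 592542 (scaffold 13, 449866 to 452748, minus strand), a fatty acid elongase, was at 64.3 and 63.4 FPKM in dark libraries, 63.6 and 53.4 FPKM with blue, and 87.5 and 75.6 FPKM with red. Its dark and blue libraries overlapped (log2 difference −0.13, interval −0.37 to 0.12, limma adjusted p = 0.3). Model 601182 (scaffold 23, 98029 to 99887, plus strand), the last of the fatty acid elongases, was at 15.7 and 14.3 FPKM in dark libraries, 18.2 and 15.1 FPKM with blue, and 15.3 and 21.1 FPKM with red. All 3 of its groups overlapped (blue against dark log2 difference 0.14, interval −0.21 to 0.48, limma adjusted p = 0.427). The sign of these 3 values turned with the scaling: with TPM they were 0.40, 0.12 and 0.38, and with median centring −0.12, −0.39 and −0.13, for 672998, 592542 and 601182. Of these, 672998 with TPM (limma adjusted p = 0.00122) and 592542 with median centring (limma adjusted p = 0.00911) passed.

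**Figure D2:**
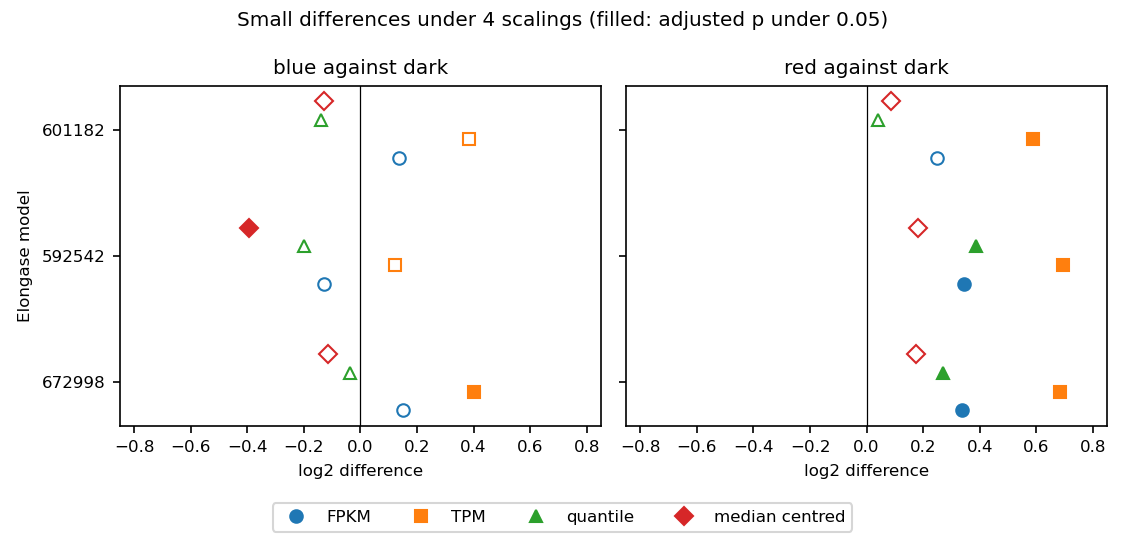
Log2 difference from dark (x axis) of the 3 elongases with small differences, after blue (left) and red (right), under 4 scalings; filled symbols have an adjusted p under 0.05. After blue, symbols lie on both sides of 0 for each model; after red, all lie above 0 and TPM gives the largest value for each.

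After the red pulse, 4 of the 6 elongases rose, 1 fell and 1 did not pass, beside 63.3% of all tested models called, 33.7% higher and 29.5% lower. Both pulses were set against the same dark libraries. The rise of 622402 to 47.1 ± 10.7 FPKM was 30.6-fold (SD, n = 2; log2 difference 4.22, SE 0.14, limma adjusted p = 1.32e-07) and the third largest of all models tested. Model 391778 rose 3.41-fold to 70.7 ± 10.1 FPKM (SD, n = 2; log2 difference 1.72, SE 0.10, limma adjusted p = 2.03e-06). Model 572755 was 10.5-fold lower at 9.91 ± 0.88 FPKM (SD, n = 2; log2 difference −3.27, SE 0.09, limma adjusted p = 8e-08), at rank 9079 of 9087. A log2 difference of at least 2 was called in 1.6% of all tested models after red, 0.869% higher and 0.726% lower.

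The remaining red differences were small. Model 672998 rose 1.27-fold (log2 difference 0.34, SE 0.09, limma adjusted p = 0.00939) and 592542 rose 1.28-fold (log2 difference 0.34, SE 0.11, limma adjusted p = 0.0193). Neither was called with median centring (0.17 and 0.18), without dark replicate 1 (limma adjusted p = 0.064 and 0.0687) or without dark replicate 2 (0.0563 and 0.0848). The call of 672998 was also lost without red replicate 2 (limma adjusted p = 0.0668), and that of 592542 without red replicate 1 (0.142) and with no filter on low values (0.0637). Model 601182 did not pass (log2 difference 0.25, interval −0.09 to 0.59, limma adjusted p = 0.179), except with TPM (0.59, limma adjusted p = 0.00898) and without red replicate 1 (0.47, limma adjusted p = 0.0327).

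Set directly against each other, the pulses differed in 4 of the 6 elongases, 2 of them higher and 2 lower after blue, beside 50.7% of all tested models called, 27% higher and 23.7% lower. Calls of at least 2 log2 were made in 2.1% of all tested models, 1.82% higher and 0.286% lower, and among the 6 elongases in 391778 alone. It was 6.97-fold higher after blue than after red (log2 difference 2.79, SE 0.10, limma adjusted p = 9.69e-08). Model 622402 was 1.82-fold higher after blue (log2 difference 0.87, SE 0.14, limma adjusted p = 0.000959). Model 592542 was lower after blue, by a log2 difference of −0.47 (SE 0.11, limma adjusted p = 0.00546), a call lost without red replicate 1 (limma adjusted p = 0.0569). For 572755 the value was −0.26 (SE 0.09, limma adjusted p = 0.0429), a call lost under several settings, among them a fit of the 4 pulsed libraries alone (limma adjusted p = 0.123) and a pseudocount of 5 (0.0744). It was also lost without dark replicate 1 (limma adjusted p = 0.1), dark replicate 2 (0.101), blue replicate 1 (0.0524), blue replicate 2 (0.0921) or red replicate 2 (0.197). The difference of 672998 was −0.19 (interval −0.39 to 0.02, limma adjusted p = 0.115), and that of 601182 was −0.11 (interval −0.45 to 0.23, limma adjusted p = 0.568). Model 672998 was called here with TPM (−0.28), quantile normalization (−0.30) and median centring (−0.29), and without blue replicate 2 (−0.26, limma adjusted p = 0.0456).

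The makeup of the summed level of the 6 elongases differed between the groups. Shares within a library do not depend on the unit, because TPM equalled FPKM times 1 constant per library. Of the summed FPKM of the 6 models, 572755 held 42.5% and 43.1% in dark, 1.18% and 1.12% with blue, and 3.55% and 3.63% with red. In contrast 391778 held 8.43% and 8.59% in dark, 68.3% and 71.5% with blue, and 24.3% and 26.8% with red. The share of 622402 was 0.62% and 0.65% in dark, 13.0% and 11.4% with blue, and 15.1% and 18.8% with red. In red libraries 592542 held 33.4% and 26.1% and 672998 held 17.7% and 17.4%. Shares of the sum over all 11 ELO models were smaller. There 572755 held a mean of 29.2% in dark and 391778 a mean of 55.2% in blue libraries. The largest mean share in red libraries was that of 557839, at 21.6%.

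The summed level itself was 244 and 243 FPKM in dark libraries, 698 and 710 FPKM with blue, and 262 and 290 FPKM with red libraries. It was thus 2.89 times the dark level after blue and 1.13 times after red. With TPM the ratios were 3.45 and 1.44, and with median centring 2.41 and 1.01. No test is given for this sum, because its members were chosen with results of these data known. Summed over all 11 ELO models, the mean level was 357 FPKM in dark, 891 in blue and 405 in red libraries.

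**Figure D3:**
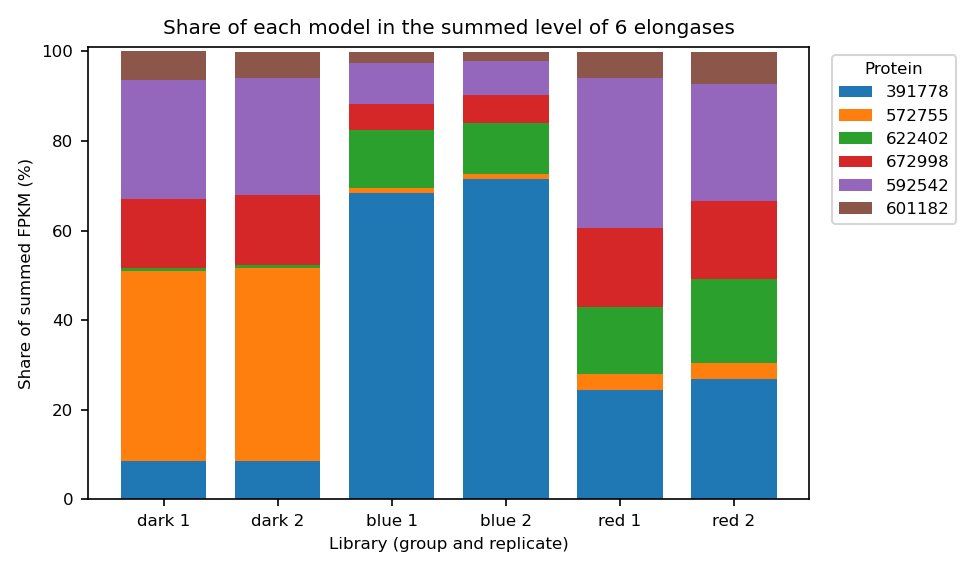
Share (y axis, % of the summed FPKM of the 6 elongases) held by each model in each of the 6 libraries. The largest share belongs to 572755 in dark, to 391778 in both blue libraries, and to 592542 or 391778 in the red libraries.

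The 5 other models with the ELO domain were all called after both pulses, 3 higher and 2 lower after blue, and 2 higher and 3 lower after red. Of all tested models 76.1% were called after blue and 63.3% after red. Model 557839 (GNS1/SUR4 family) rose from 51.7 ± 0.13 FPKM in dark to 107 ± 3.85 in blue and 87.4 ± 3.64 in red libraries (SD, n = 2). Model 577691, a fatty acid elongase, rose from 6.70 ± 0.24 to 32.4 ± 2.51 FPKM after blue and 11.9 ± 3.39 FPKM after red (SD, n = 2). It shares 151 bases with 577690, of the opposite strand, which rose as well, at 5.22 FPKM in dark, 23.7 in blue and 10.1 in red libraries. Fatty acid elongase 556704 fell from 24.8 ± 0.73 to 6.12 ± 0.64 FPKM after blue and 14.0 ± 0.23 FPKM after red (SD, n = 2), and ELO model 592554 from 18.9 ± 0.81 to 6.67 ± 0.98 and 10.0 ± 1.44 FPKM (SD, n = 2).

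Model 601925 (GNS1/SUR4 family; scaffold 24, 198479 to 200476, minus strand) was the ELO model called in opposite directions after the 2 pulses. It was at 11.5 and 11.4 FPKM in dark libraries, 34.1 and 36.9 FPKM with blue, and 5.80 and 5.47 FPKM with red. Blue libraries were the highest and red libraries the lowest, with no overlap. It rose after blue (log2 difference 1.55, SE 0.10, limma adjusted p = 7.36e-07) and fell after red (−0.91, SE 0.10, limma adjusted p = 4.69e-05). Blue was 6.30-fold above red (log2 difference 2.46, SE 0.10, limma adjusted p = 1.36e-07). With TPM the red difference was −0.62 and with median centring −1.07. This model overlaps 195416, of the opposite strand, by 701 bases and 601922, of its own strand, by 79 bases. Model 195416 also rose after blue and fell after red, at 3.50 FPKM in dark, 8.01 in blue and 1.87 in red libraries. Its red fall was not called with TPM (limma adjusted p = 0.0741). Model 601922 was at 3.66, 2.24 and 2.74 FPKM. How fragments of the shared spans were assigned was not tested.

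**Figure D4:**
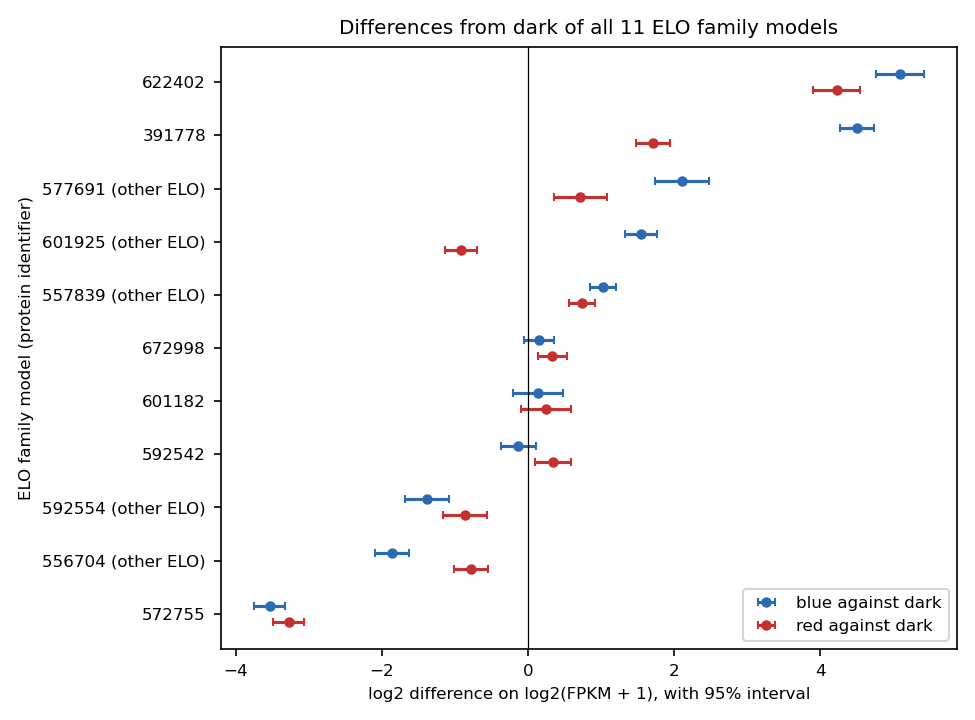
Log2 difference from dark (x axis, with 95% interval) of all 11 ELO family models after blue (blue points) and red (red points), ordered by the blue value; the 5 models outside the set of 6 are marked. Values run from −3.53 for 572755 to 5.09 for 622402 after blue, and only 601925 has intervals on opposite sides of 0 for the 2 pulses.

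In dark libraries the order of the 11 models ran from 572755 over 592542, 557839, 672998, 556704, 391778, 592554, 601182, 601925 and 577691 down to 622402, and no neighbours in it overlapped. In blue libraries it began with 391778, 557839, 622402, 592542 and 672998, while 572755 stood ninth, at 8.08 FPKM. In red libraries 557839, 592542 and 391778 led, and 557839 overlapped 592542, which overlapped 391778. Models 672998 and 622402 followed and overlapped as well. Near-identical family members can share fragments, and how the counting divided them was not tested here.

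Other models overlap 3 of the elongases. Model 622402 lies whole, over 1093 bases, inside the span of 575149, a cytochrome c heme lyase domain model on the same strand. That model was at 39.3 and 40.9 FPKM in dark libraries, 85.9 and 111 FPKM with blue, and 41.5 and 43.2 FPKM with red. It rose after blue (log2 difference 1.26, SE 0.12, limma adjusted p = 8.86e-06) and did not pass after red (0.08, SE 0.12, limma adjusted p = 0.584), except with TPM (0.42, limma adjusted p = 0.00489), while 622402 rose after both. The levels of 622402 depend on how fragments of the shared span were assigned, which was not tested. For 622402, the authors' deposited table holds log2 ratios of 5.80 for blue and 4.93 for red, with q-values of 0.346 and 0.349. The authors' deposited table gives q = 0.000177 for 391778 and for 572755 in both comparisons, and q-values between 0.055 and 0.614 for the other 3 elongases. Of 83 models called here by at least 2 log2 after blue that overlap a model of the same strand, 21 (25.3%) had q at or over 0.05 in the authors' deposited table. Without such an overlap it was 7 of 407 (1.72%). Why the authors' q-values and the calls made here differ was not tested.

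Model 592542 shares 1340 bases with 592550, a hypothetical protein of the same strand that fell after blue from 8.81 to 3.88 FPKM (log2 difference −1.01, SE 0.16, limma adjusted p = 0.000299). Behind it, 976 bases from 592542 and also on the same strand, begins the ELO model 592554 (scaffold 13, 453725 to 456382). These were the only ELO models on a common scaffold. The levels of 592542 depend on how fragments of the span shared with 592550 were assigned, which was not tested. The level of 592542 over that of 592554 was 3.30 and 3.46 in dark, 8.65 and 8.93 with blue, and 9.72 and 6.85 with red, so that the ratio was higher in all 4 pulsed libraries. On the opposite strand 631068, an integral membrane protein model, shares 473 bases with 592542. It rose from 43.1 to 56.6 FPKM after blue (log2 difference 0.39, limma adjusted p = 0.00182) and 51.0 FPKM after red (0.24, limma adjusted p = 0.0285), calls that were both lost with median centring (0.12 and 0.07). Model 672998 shares its span with 599993 on the opposite strand, which reached 0.0879 FPKM at most.

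The nearest neighbour of 572755 on its own strand, 1804 bases away, is 645801, a glycoside hydrolase of family 47. It stood at 15.4 and 14.8 FPKM in dark libraries, 0.52 and 0.81 FPKM with blue, and 1.09 and 1.08 FPKM with red. It was lower after blue (log2 difference −3.28, SE 0.14) and after red (−2.95, SE 0.14). It passed the filter on low values only through its dark libraries, so no p-value is given. The pulsed values lie near the pseudocount of 1, which makes these differences smaller than the ratios of FPKM. On the other side, 562 bases away on the opposite strand, a DUF1517 domain model (572761) fell from 43.8 to 15.5 FPKM after blue and 15.3 FPKM after red. Neither overlaps 572755. The neighbours of 391778 moved in different directions. Model 584007, at 668 bases and on the opposite strand, rose from 52.2 to 147 FPKM after blue, whereas 584016, at 388 bases and on the same strand, fell from 1025 to 179.6 FPKM.

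Beside 592542, hypothetical protein 592540 rose from 12.2 to 32.0 FPKM after blue and 26.4 FPKM after red. Beside 622402, model 575145 was at 24.2 FPKM in dark, 29.0 in blue and 49.1 in red libraries, and 575150 at 38.0, 35.6 and 33.1 FPKM. The red rise of 575145 (log2 difference 0.99, limma adjusted p = 1.36e-05) was called under each scaling, and its blue value of 0.25 was −0.01 with quantile normalization. Beside 672998, 531987 rose from 15.0 to 25.4 FPKM after blue and 20.9 FPKM after red. The latter was not called with quantile normalization (limma adjusted p = 0.0653). Model 600002 did not pass, at 107.4, 100.8 and 111.3 FPKM, but this turned with the scaling. It was higher after red with TPM (0.40, limma adjusted p = 0.000812) and quantile normalization (0.21, limma adjusted p = 0.0296). After blue it was lower with median centring (−0.36, limma adjusted p = 0.00214). Beside 601182, a protein phosphatase 2C-like model (532252) fell from 52.2 to 36.5 FPKM after blue, a call lost with TPM (limma adjusted p = 0.148), and stood at 61.3 FPKM after red. Its other neighbour, 186794, did not pass after either pulse, at 34.6, 33.9 and 41.1 FPKM, except after red with TPM (0.60, limma adjusted p = 0.0114).

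**Figure D5:**
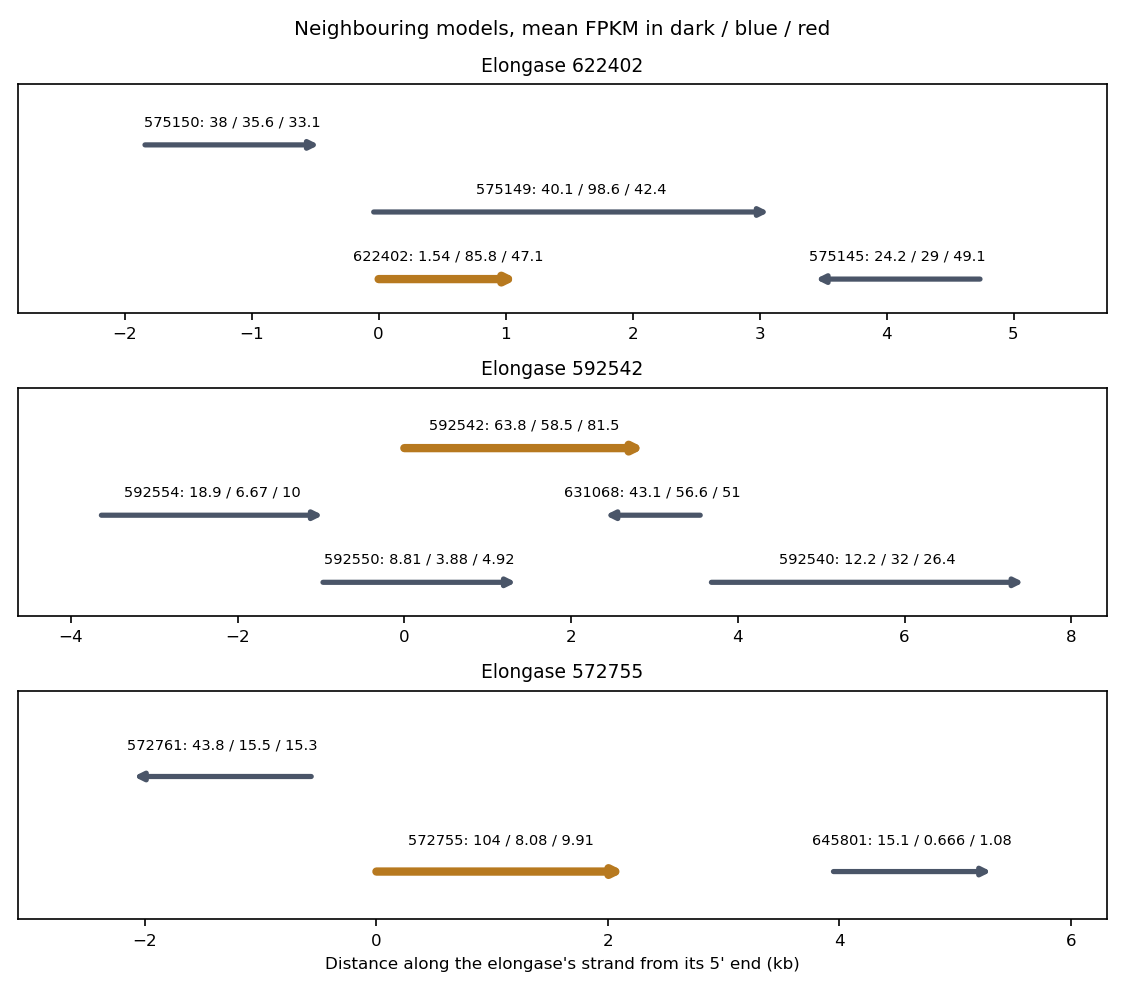
Spans of 3 elongases (thick arrows) and their overlapping or nearest models (thin arrows) by distance in kb along the elongase's strand, with the direction of each arrow giving the strand and the numbers the mean FPKM in dark, blue and red. Model 622402 lies inside 575149, 592554 lies upstream of 592542, and 645801, downstream of 572755, is lower in both pulsed groups.

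Likeness of pattern was measured as the Euclidean distance, over the 6 libraries, between log2(FPKM + 1) values taken relative to the dark mean, and it is a description with no test. Models without a description, the 6 elongases themselves and models that overlap the elongase were left out. Among the models left, the closest to 572755 was its neighbour 645801 (distance 0.63), whose pulsed values lie near the floor. It was followed by a putative fumarate reductase (588713, distance 0.82), at 245 FPKM in dark, 24.6 in blue and 34.9 in red libraries. The closest to 391778 was a peptidyl-prolyl isomerase of the FKBP type (605570; distance 0.51), a class of protein-folding enzymes, at 4.45 FPKM in dark, 137 in blue and 13.9 in red libraries. An oxoglutarate/malate translocator (584245, at a distance of 0.59), which overlaps a model of the opposite strand, came next. Model 622402 had no near match among the models left. A model joining 2 glycolytic enzymes, triosephosphate isomerase and GAPDH (623181), lay at a distance of 1.15. A RING finger protein with an Armadillo fold (611415) lay at 1.58. The first of these overlaps another model on its strand. For the 3 elongases with small differences the closest models lay within 0.26, among them isopentenyl-diphosphate isomerase (588939), of isoprenoid synthesis, beside 672998.

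A search of the descriptions for the later steps of the elongation round found 3 models. A PTPLA domain model (633915), the domain of the 3-hydroxyacyl-CoA dehydratase, fell from 14.4 ± 0.52 to 5.66 ± 0.35 FPKM after blue and to 10.0 ± 1.26 FPKM after red (SD, n = 2). Model 626167, whose orthology group names a reductase of very long chain elongation and which was named after its values were seen, fell from 30.9 ± 0.98 to 15.2 ± 2.75 and 22.4 ± 4.02 FPKM (SD, n = 2). Model 591677, annotated as steroid 5-alpha reductase and sharing the same domain, has no orthology text that names elongation. It may thus not be a model of this round, and it overlaps a model of the opposite strand. It rose from 37.0 to 245 FPKM after blue (log2 difference 2.69, SE 0.10, limma adjusted p = 3.5e-08). After red it was at 43.2 FPKM (log2 difference 0.22, limma adjusted p = 0.0826). With TPM, 0 of these 3 fell and 1 rose after red, and 1 in place of 2 fell without dark replicate 2 or without red replicate 2. In this and the following lists, the counts stand beside 39.9% higher and 36.2% lower of all tested models after blue, and 33.7% higher and 29.5% lower after red.

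Of 8 models for the supply of malonyl-CoA, the donor of the added carbons, 4 rose and 4 fell after blue, with a median log2 difference of 0.05, and 5 rose and 1 fell after red, with a median of 0.22. Without any single dark or red library, 3 rose after red. After blue these counts lay near the shares of all models. The orthology text of some of these also names methylcrotonyl-CoA carboxylase, an enzyme of leucine breakdown. The largest differences were those of 204548, a biotin attachment domain model under acetyl-CoA carboxylase, from 7.34 to 34.1 FPKM, and of 611034, a carboxyl transferase, from 1237 to 199.8 FPKM. The orthology text of 611034 names both enzymes, so it may not be a model of malonyl-CoA supply. Model 560653 of the list is itself described as a subunit of methylcrotonoyl-CoA carboxylase. Model 18310, described as like a plant-type elongase or a type III polyketide synthase, carries a chalcone/stilbene synthase domain and may not be an elongase. It rose from 293 to 428 FPKM after blue and fell to 248 FPKM after red (log2 difference −0.24, limma adjusted p = 0.0409). The red value turned to 0.105 with TPM and 0.095 with quantile normalization, neither of them called.

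Desaturases insert the double bonds between rounds of elongation. After blue 10 of 15 tested desaturase models rose and 4 fell, with a median log2 difference of 2.54 against 0.14 over the 6 elongases and 0.05 over all tested models. After red 8 rose and 4 fell, with a median of 0.32 against 0.34 over the elongases and 0.04 over all tested models. Desaturase 591536, which overlaps a model of its strand, was at 1.82 FPKM in dark, 655 in blue and 5.03 in red libraries, and 639463 was at 3.93, 519 and 16.2 FPKM. Delta-6 desaturase (606752), which overlaps a model of the opposite strand, was at 1.35, 296 and 2.63 FPKM.

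Acyl-CoA synthetases make and acyl-CoA binding proteins carry the activated fatty acids. The list of both, 18 models found by description, also takes models described as acetyl-CoA synthetases. It takes an O-acyltransferase model (277447) as well, which is also in the list of glycerolipid acyltransferases. In this list 12 fell and 5 rose after blue (median log2 difference −0.61), and 9 fell and 2 rose after red. The 5 that rose after blue were 3 without dark replicate 1, 3 without dark replicate 2 and 2 with median centring. The 2 that rose after red were 4 without blue replicate 1 and 4 without blue replicate 2. With TPM 5 fell and 7 rose after red. A long-chain acyl-CoA ligase (603105) fell from 4101 ± 33.3 to 680.3 ± 32.9 FPKM after blue and to 1556 ± 120.0 FPKM after red (SD, n = 2). An acyl-CoA binding protein (598700), which overlaps models on both strands, fell from 75.3 to 24.1 and 29.8 FPKM. Glycerolipid acyltransferases, which place fatty acids on glycerol, rose in 9 and fell in 12 of 25 tested cases after blue, and rose in 12 and fell in 7 after red. The balance turned with the scaling, to 9 risen and 7 fallen after blue with TPM, and to 8 risen and 10 fallen after red with median centring. A diacylglycerol acyltransferase domain model (641239) overlaps a model of its strand. It rose from 9.22 and 8.59 FPKM in dark libraries to 42.1 and 57.9 FPKM after blue. After red it rose to 27.9 and 27.0 FPKM. Acyltransferase 601076, which overlaps a model of the opposite strand, rose from 11.1 to 51.3 FPKM after blue and 18.6 FPKM after red.

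Of 15 tested models with a cytochrome b5 domain, the electron carrier of many desaturases, 6 rose and 3 fell after blue, and 6 rose and 5 fell after red. The share that rose after blue lay near that of all tested models. With TPM 11 rose and 3 fell after blue, and 7 rose and 2 fell after red. With median centring 6 rose and 6 fell after each pulse. Of the 16 models in that list, 5 are also in the list of desaturases. The list takes nitrate reductase (590448) as well, which carries the domain and was at 0.73 FPKM in dark, 64.0 in blue and 7.71 in red libraries. Nitrate reductase passed the filter on low values only through its pulsed libraries, and it is counted among the models that rose after both pulses.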

How the data were processed

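The authors deposited FPKM and TPM values per gene model and library, together with log2 ratios, p-values and q-values of their own comparisons, per the file headers. Per the submitters' processing notes, the tools included TopHat, Cufflinks, Cuffdiff, Cuffnorm and FastQC. Their settings, the strand setting of the counting and the handling of fragments shared by overlapping or similar models are not stated in these sources.

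The deposited FPKM values were taken as log2(FPKM + 1). Of 10635 models with values, 9087 reached a mean of 1 FPKM across the 6 libraries and were tested with limma 3.58.1 in R 4.3.3, with a variance trend, 1 fit over all 3 groups and 3 residual degrees of freedom. Tests were two-sided, with Benjamini-Hochberg adjustment over all tested models and a threshold of 0.05. The procedure was also run on simulated data with independent noise and few changed models, which does not test the dependence on scaling. Counts were not used here, so no count test was run, and the fragments behind 1 FPKM were estimated from the steps between low values.

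All 6 elongases are named. From each list the text names the models with the largest differences after blue and after red, and for each elongase it takes the nearest and overlapping models and the closest patterns. Members and lists, the latter word patterns on the annotation, were chosen with earlier results of these data known. Alternatives were TPM, other pseudocounts (0.1 and 5), no filter, quantile normalization, median centring, no variance trend, only the groups compared, a replicate block, and each library left out.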

Additional observations from a re-analysis of the deposited data

Results flagged for a closer look

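The effects of the blue and red pulses differed, by the direct test of blue against red, in 9 of the 11 ELO models, beside 50.7% of all tested models. The log2 difference of blue against red was 2.79 for 391778, 0.87 for 622402, −0.47 for 592542 and −0.26 for 572755. Among the other ELO models it was 2.46 for 601925, 1.40 for 577691, 0.28 for 557839, −0.52 for 592554 and −1.08 for 556704. Of these, 601925 was called in opposite directions from dark; 592542 had values of opposite sign, with blue against dark not called. The calls of 572755, 592542, 557839 and 592554 were each lost when at least 1 library was left out: without red replicate 1 that of 592542 (−0.37) and 557839 (0.24), and without red replicate 2 that of 592554 (−0.39) and 572755 (−0.18).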

How the results depend on the processing

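Models 391778 and 622402 kept their direction and their call in all 3 comparisons under every alternative run, and 572755 did so in both comparisons with dark. All these runs start from the same deposited values, so they do not test how fragments shared by 622402 and 575149 were assigned. The authors' own q-values for 622402 were 0.346 for blue and 0.349 for red. The size of the rise of 622402 moved with the pseudocount, because its dark level is low. After blue it was 5.71 with a pseudocount of 0.1 and 3.79 with 5, and after red 4.83 and 2.98. The number of elongases called in red against dark, 5, was 3 with median centring and 3 to 5 when single libraries were left out. The summed level after blue, 2.89 times that in dark, was 3.45 with TPM, 2.41 with median centring and 2.87 to 2.92 with single libraries left out. After red, 1.13 times, it was 1.44, 1.01 and 1.07 to 1.19. The sign of blue against dark turned for 672998 with quantile normalization (−0.036) and median centring (−0.12), for 592542 with TPM (0.12), and for 601182 with quantile normalization (−0.14) and median centring (−0.13). For blue against red, 601182 turned without blue replicate 2 (0.014) and red replicate 2 (0.104), in a range of −0.328 to 0.104. The cause was not tested.

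With the replicate number as a block, 3 elongases were called after blue, 5 after red and 4 between the pulses, as without it. Of all tested models 7039, 5897 and 4858 were called. The numbers are not stated to pair the libraries, and the titles tag replicate 1 as D.1, B.1 and R.2 but replicate 2 as D.3, B.3 and R.3, so the block joins R.2 with D.1 and B.1. On these numbers, the deviations of same-numbered libraries correlated by 0.09 (dark and blue), −0.08 (dark and red) and 0.34 (blue and red). With 2 libraries a group, small differences such as those of 601182 could not be resolved, and the dark level of 622402 rests on few fragments.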
